A study of Rattus norvegicus with 8 samples.

Results

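Ionotropic glutamate receptors are ligand-gated cation channels that open when glutamate binds. The subunits fall into AMPA, NMDA and kainate classes, and their transcripts were followed here in the cortex of rats after an experimental stroke. The members were the probes whose symbol in the deposited array table was Gria1 to Gria4 (AMPA), Grin1, Grin2a, Grin2b or Grin2c (NMDA), or Grik1 or Grik2 (kainate). These symbols were carried by 10 of the 23609 probes, for 9 of the 10 listed genes. Gria3 had 2 probes and the other 8 genes 1 each. No probe bore the symbol Gria1, which is not analysed here.

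The groups were 4 Sprague Dawley rats with transient middle cerebral artery occlusion (tMCAO), in which the main artery of the lateral cortex is blocked and then reopened, and 4 sham-operated rats. Tissue of both groups was collected at 24 h as a section 4 mm thick on the operated side, and only the cortex was profiled. Sex, age and length of occlusion are not given in the sources used here. Each two-colour array compared 1 animal, labelled with Cy5, with pooled RNA of sham cortex, labelled with Cy3, and a log2 ratio of 0 stands for equal signal in both.

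AMPA receptors carry fast excitatory transmission; the edited GluA2 subunit, encoded by Gria2, keeps them nearly impermeable to calcium. NMDA receptors pass calcium and need both glutamate and glycine or D-serine, with GluN1 (Grin1) in every channel and GluN2 subunits setting the kinetics. Kainate receptors act on both sides of the synapse and modulate release. Excess calcium entry through NMDA receptors during ischaemia is a classical mechanism of excitotoxic neuronal death.

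All 10 member probes fell after tMCAO (adjusted p under 0.05), and on each of them all 4 tMCAO ratios lay below all 4 sham ratios. By the same rule 15.1% of all probes were called lower, 14.5% higher and 29.6% in either direction, and on 15.4% all tMCAO ratios lay below all sham ratios. The falls ranged from 2.85-fold for Gria2 to 1.37-fold for Grik1. With quantile-normalized ratios, which give every array the same spread, they ranged from 1.76-fold for Gria2 to 1.27-fold for Grin2b, and on 8 of the 10 probes the log2 difference was over 1.5 times smaller (Gria2 -0.82, Gria4 -0.42, Grin2a -0.58, Grin1 -0.53). The median log2 difference of the member probes was -0.97, against -0.05 for all 23376 probes with complete values. Tests are those of limma, a moderated linear model fitted to all these probes, with Benjamini-Hochberg adjustment. Fewer cells of a type and less RNA per cell cannot be told apart in such bulk tissue. The 4 animals of a group are described as biological replicates in the labels.

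On the arrays as a whole, between 23434 and 23565 probes carried a value. Over all probes of an array the log2 ratios had an SD of 0.741, 0.691, 0.615 and 0.368 in the 4 tMCAO animals, and one between 0.231 and 0.259 in each sham animal. Replicate 4 of tMCAO therefore stood closer to sham than the other 3, and its values are given throughout. The member signals lay between 0.06 and 3.99 on the linear scale of the deposited intensities. Values are rounded to 0.01, which makes the ratios of Gria4, Grin2a and Grin2b coarse.

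**Figure D1:**
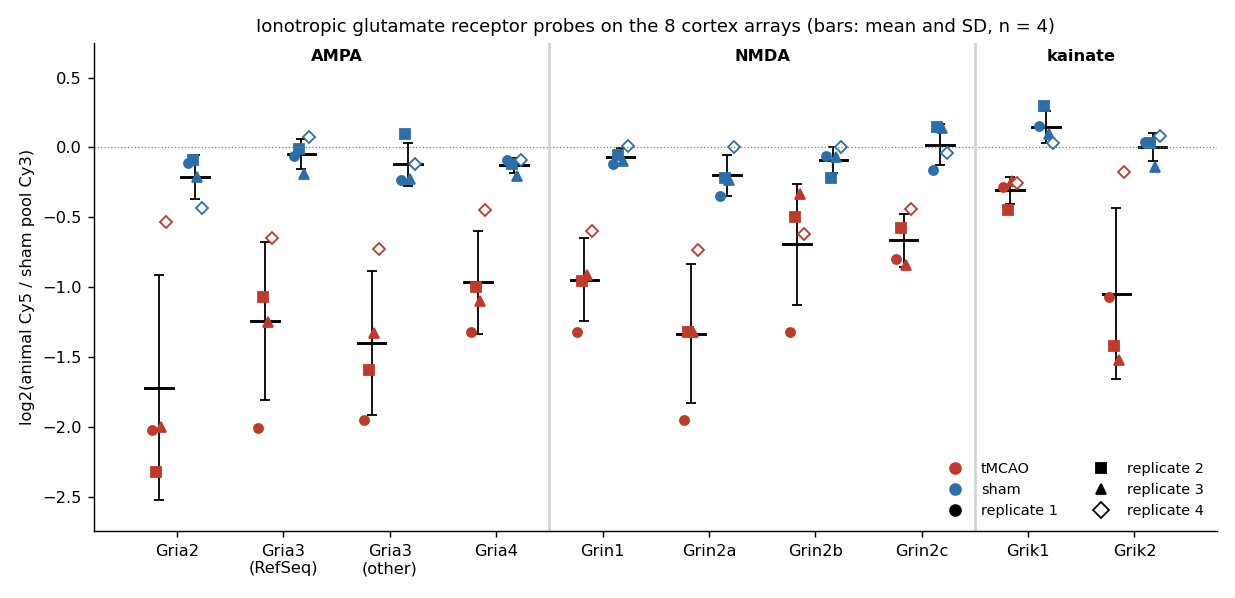
Log2 ratio of animal (Cy5) to sham pool (Cy3) for each member probe, with tMCAO arrays in red left of sham arrays in blue, marker shape for the replicate, and black bars for the mean and SD of 4 arrays. On every probe the red points lie below the blue ones; open diamonds mark replicate 4, which is the tMCAO array nearest to 0 on 8 of the 10 probes.

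Among the AMPA subunits, Gria2 had log2 ratios of -2.03, -2.33, -2.0 and -0.53 in tMCAO replicates 1 to 4, against -0.11, -0.09, -0.21 and -0.44 in sham replicates 1 to 4. The first 3 tMCAO animals stood far below sham, while the fourth was only just below the lowest sham animal. The fitted log2 difference was -1.51 ± 0.35 (SE, 4 animals per group; adjusted p = 0.0149), the 130th lowest of all 23376 probes.

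The size of the Gria2 fall depended on the channel used. The animals' own Cy5 intensity was 0.98, 0.72, 0.93 and 2.44 in tMCAO cortex, against 2.37, 2.24, 2.08 and 1.95 in sham cortex. In tMCAO replicate 4 it was thus higher than in any sham animal. The Cy3 intensity of the pool was 3.99, 3.61, 3.73 and 3.53 on the tMCAO arrays, against 2.56, 2.39, 2.41 and 2.64 on the sham arrays, a 1.49-fold difference (adjusted p = 0.0021, limma) in a channel that by label held sham RNA on every array. With the Cy5 signal alone, quantile normalized, the Gria2 fall was 2.06-fold (adjusted p = 0.0313, limma). A difference in hybridisation between the tMCAO and the sham arrays cannot be told apart from group, since no array carried animals of both groups. No dye was swapped, and what lay behind the pool difference was not tested.

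The pair of Gria3 probes, for the GluA3 subunit that joins GluA2 in many cortical receptors, gave similar falls. They differed on single arrays, most in tMCAO replicate 2 (-1.07 and -1.60). The probe listed with a RefSeq transcript had log2 ratios of -2.01, -1.07, -1.25 and -0.65 in tMCAO cortex, against -0.06, -0.01, -0.19 and 0.07 in sham cortex. The other Gria3 probe had -1.95, -1.60, -1.33 and -0.73 in tMCAO cortex, against -0.23, 0.10, -0.23 and -0.12 in sham cortex. The falls were 2.29-fold (adjusted p = 0.0107) and 2.43-fold (adjusted p = 0.00714) by limma, and replicate 1 was the lowest tMCAO animal on both. With Cy5 alone the falls were 2.34-fold and 2.52-fold, and the pool signal differed by 1.06-fold and 1.02-fold between tMCAO and sham arrays, which was not called.

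Gria4 encodes GluA4, which in the cortex is found mostly in fast-spiking interneurons. Its log2 ratios were -1.32, -1.0, -1.10 and -0.45 in tMCAO cortex, against -0.09, -0.12, -0.21 and -0.09 in sham cortex. The fall was 1.79-fold (log2 difference -0.84 ± 0.17, SE, 4 animals per group, limma adjusted p = 0.0096). At Cy5 intensities of 0.06 to 0.11 in tMCAO and 0.12 to 0.15 in sham cortex, rounding alone allows a fall of 1.51- to 2.13-fold.

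Of the NMDA subunits, Grin1, which encodes the obligatory GluN1 subunit, fell 1.84-fold (log2 difference -0.88 ± 0.14, SE, 4 animals per group, limma adjusted p = 0.00508). Its log2 ratios were -1.32, -0.96, -0.91 and -0.60 in tMCAO cortex, against -0.12, -0.05, -0.10 and 0.01 in sham cortex. No tMCAO animal came near the sham range. The Grin1 Cy5 intensity was 0.60, 0.67, 0.76 and 0.84 in tMCAO cortex and 1.04, 1.07, 0.97 and 1.18 in sham cortex, so the groups were also apart in that channel. The pool signal was 1.23-fold higher on the tMCAO arrays (limma adjusted p = 0.0107), and with Cy5 alone the fall was 1.6-fold.

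Grin2a and Grin2b encode GluN2A and GluN2B, the main GluN2 subunits of the forebrain; GluN2B prevails early in development and GluN2A later. Grin2a had log2 ratios of -1.95, -1.32, -1.32 and -0.74 in tMCAO cortex, against -0.35, -0.22, -0.23 and 0 in sham cortex. It fell 2.19-fold (limma adjusted p = 0.00915; 1.99- to 2.42-fold within rounding), the largest estimate among the NMDA subunits.

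Grin2b had log2 ratios of -1.32, -0.50, -0.34 and -0.62 in tMCAO cortex, against -0.06, -0.22, -0.07 and 0 in sham cortex. Replicate 1 was far below the other tMCAO animals, and replicate 3 came closest to the lowest sham animal. The fall of 1.52-fold (log2 difference -0.60 ± 0.20, SE, 4 animals per group, limma adjusted p = 0.0487) was at the edge of the threshold. Without tMCAO replicate 1 the log2 difference was -0.40 (adjusted p = 0.035). Without tMCAO replicate 2 or 4, or any single sham array, the call was lost (adjusted p = 0.0516 to 0.112). With Cy5 alone it was lost too (1.40-fold, adjusted p = 0.076), and the deposited Cy5 intensities overlapped, at 0.10 to 0.19 in tMCAO and 0.18 to 0.22 in sham cortex.

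Grin2a minus Grin2b was -0.63, -0.82, -0.98 and -0.12 on the log2 ratio scale in tMCAO replicates 1 to 4, against -0.28, 0, -0.16 and 0 in sham replicates 1 to 4. The groups overlapped in tMCAO replicate 4, and this difference between the subunits was not tested. Grin2c encodes GluN2C, a subunit best known from cerebellar granule cells. Its log2 ratios were -0.80, -0.58, -0.84 and -0.44 in tMCAO cortex, against -0.16, 0.14, 0.14 and -0.04 in sham cortex. The tMCAO animals lay close together, and Grin2c fell 1.61-fold (log2 difference -0.69 ± 0.12, SE, 4 animals per group, limma adjusted p = 0.00622).

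The kainate subunits differed from each other in size. Grik1, which encodes GluK1, had log2 ratios of -0.29, -0.45, -0.24 and -0.26 in tMCAO cortex, against 0.16, 0.30, 0.10 and 0.03 in sham cortex. The tMCAO values were tightly grouped (SD 0.097, n = 4), and replicate 4 was no nearer to sham than replicate 3. The fall was 1.37-fold (log2 difference -0.45 ± 0.09, SE, 4 animals per group, limma adjusted p = 0.0093). In the ratios, part of this difference lay in sham animals above the pool, with a mean of 0.15 ± 0.11 (SD, n = 4). That sham mean was not called as different from the pool (limma adjusted p = 0.641). With Cy5 alone, quantile normalized, the Grik1 fall was 1.57-fold.

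Grik2, which encodes GluK2, had log2 ratios of -1.07, -1.42, -1.52 and -0.18 in tMCAO cortex, against 0.04, 0.03, -0.14 and 0.08 in sham cortex. Replicate 4 was just below the lowest sham animal, while the other 3 tMCAO animals stood far below it. The fall was 2.07-fold (log2 difference -1.05 ± 0.27, SE, 4 animals per group, limma adjusted p = 0.0207). In Cy5 the fourth tMCAO animal reached 1.00, inside the sham range of 0.88 to 1.12, against 0.48, 0.40 and 0.39 in the other 3. The call was lost without tMCAO replicate 1, 2 or 3 or without sham replicate 1, 2 or 4 (adjusted p = 0.054 to 0.059), and without tMCAO replicate 4 the log2 difference was -1.34 (adjusted p = 0.000132). Grik2 minus Grik1 was -0.79, -0.97, -1.28 and 0.08 in tMCAO replicates 1 to 4, against -0.11, -0.27, -0.24 and 0.05 in sham replicates 1 to 4. The last tMCAO animal did not share the lower Grik2 of the other 3, and the difference between the subunits was not tested.

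Set side by side, the median log2 ratio of the 4 AMPA probes was -1.98, -1.33, -1.29 and -0.59 in tMCAO replicates 1 to 4, against -0.21 to -0.05 in sham animals. The 4 NMDA probes had medians of -1.32, -0.77, -0.88 and -0.61 in tMCAO cortex, against -0.14 to 0 in sham cortex. The 2 kainate probes had -0.68, -0.94, -0.88 and -0.22 in tMCAO cortex, against -0.02 to 0.16 in sham cortex. AMPA medians were the lowest on tMCAO replicates 1, 2 and 3, and the NMDA median was marginally lower on replicate 4. In order of the fitted fall in the ratio to the pool, the sequence was Gria2, the Gria3 probes, Grin2a, Grik2, Grin1, Gria4, Grin2c, Grin2b and Grik1. The 95% intervals of neighbours in this order overlapped widely; those of Gria2 (log2 difference -2.31 to -0.71) and Grik1 (-0.66 to -0.25) did not, though both were picked as the ends of the order. The order depended on the channel and the normalization. With Cy5 alone, quantile normalized, both Gria3 probes (log2 difference -1.34 and -1.23) and Grik2 (-1.06) were below Gria2 (-1.04 ± 0.31, SE). Grik1 was then at -0.65 ± 0.11 (SE), and Grin2b (-0.49) was the smallest. With quantile-normalized ratios, which keep the pool, Gria2 (-0.82) stayed first and Grik2 (-0.67) was below Grin2a (-0.58). Grik1 (-0.49) was then below Gria4 (-0.42), and Grin2b (-0.35) was again the smallest.

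**Figure D2:**
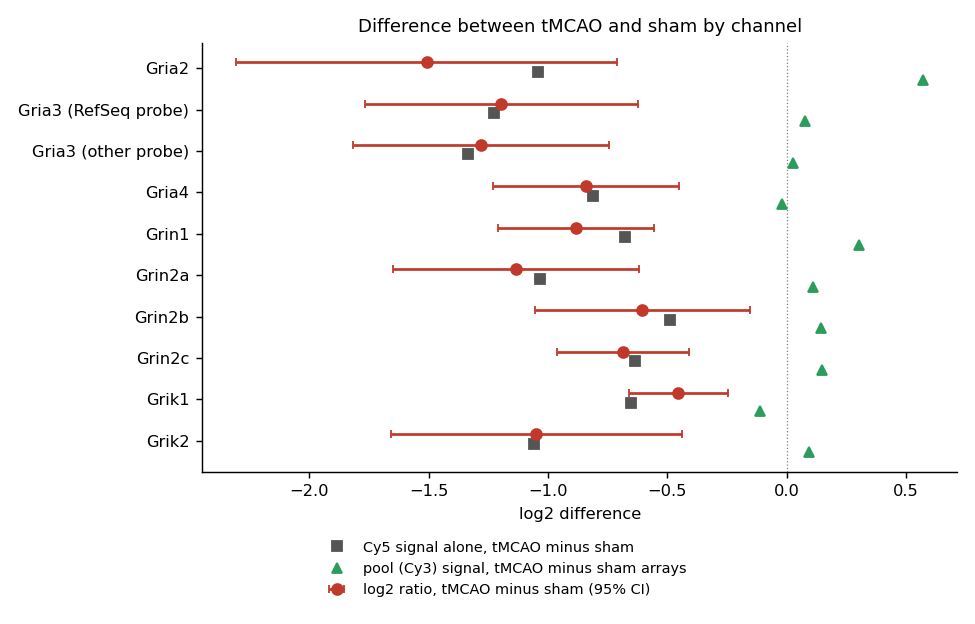
Log2 difference between tMCAO and sham arrays for each member probe: red circles give the ratio to the pool with its 95% confidence interval, grey squares the quantile-normalized Cy5 signal alone, and green triangles the pool signal as deposited, without quantile normalization. The red intervals all lie below 0, and the pool signal of Gria2 stands out at 0.57.

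In the pool channel, 5 of the 10 member probes (Gria2, Grin1, Grin2a, Grin2b and Grin2c) were called higher on the tMCAO arrays and none lower, where 26.5% of all probes were called higher and 10.2% lower. The pool signal was fitted as deposited and the Cy5 signal alone after quantile normalization, so these fits need not add up to the ratio. A higher pool signal lowers the ratio. Measured against the pool alone, tMCAO cortex was lower on all 10 probes (25.8% of all probes). With the Cy5 signal alone, 9 of the 10 were still called lower, Grin2b being the exception, against 15.4% of all probes. The deposited Cy5 intensities of the groups did not overlap on 7 of the 10 probes, with tMCAO lower, as on 11% of all probes; they overlapped on Gria2, Grin2b and Grik2. For Grik1 the pool signal had a log2 difference of -0.11 between tMCAO and sham arrays, which was not called (limma adjusted p = 0.0762), and its fall was 1.57-fold with Cy5 alone. Against the pool, the sham animals themselves differed on none of the 10 probes (0 at an unadjusted p under 0.05, limma), where 0.0556% of all probes were called in either direction and 0.0128% lower. The pool was itself RNA of sham cortex, so little difference was to be found there and this count carries little weight.

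**Figure D3:**
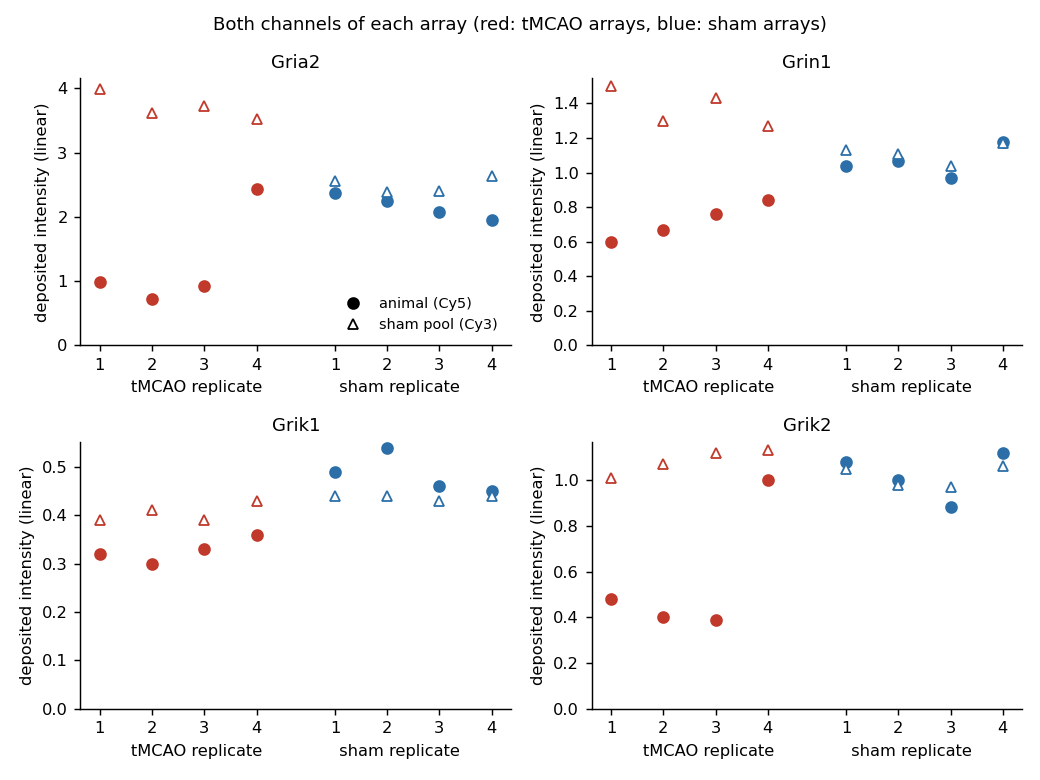
Deposited linear intensities of the animal (Cy5, filled circles) and of the sham pool (Cy3, open triangles) on each array, tMCAO in red left of sham in blue. The pool of Gria2 was brighter on all 4 tMCAO arrays, and the Cy5 signals of Gria2 and Grik2 in tMCAO replicate 4 reached sham levels.

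By the p-values of the authors' deposited table, which compare the channels of a single array, 9, 8, 8 and 8 of the 10 member probes differed from the pool at p under 0.01 on tMCAO arrays 1 to 4, against 0 of 10 on each sham array. The share of all probes past that threshold in the authors' deposited table was 35.4%, 33.6%, 29% and 11.7% on the tMCAO arrays, against 1.88% to 2.73% on the sham arrays. Replicate 4 thus had few differing probes in all, but 8 differing member probes, as replicates 2 and 3 had. These p-values rest on the pool, which was called higher on the tMCAO arrays for 5 of the 10 member probes. In Cy5, replicate 4 was above every sham animal on Gria2 (2.44 against 1.95 to 2.37). On Grik2 it was inside the sham range (1.00, sham 0.88 to 1.12). On 7 of the 10 probes all tMCAO Cy5 intensities lay below those of sham. The p-value does not count animals.

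Promoter windows of 5 of the 10 genes were in the RefSeq table of the GRCr8 assembly (Grin1, Gria4, Grin2c, Grik1 and Grik2). The 250 bases before the start are given for Grin1, the obligatory NMDA subunit, and for both kainate subunits, which had the smallest fall and one of the larger ones. Capitals mark TGACG, the core of the cyclic AMP response element, on either strand.
Grin1, chr3:28528755-28529004, minus strand: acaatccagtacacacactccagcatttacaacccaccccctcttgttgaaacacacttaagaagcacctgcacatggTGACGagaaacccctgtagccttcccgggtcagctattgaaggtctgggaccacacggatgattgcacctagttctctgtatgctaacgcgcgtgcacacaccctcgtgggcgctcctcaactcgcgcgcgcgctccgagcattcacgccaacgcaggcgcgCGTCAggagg
Grik1, chr11:41056504-41056753, minus strand: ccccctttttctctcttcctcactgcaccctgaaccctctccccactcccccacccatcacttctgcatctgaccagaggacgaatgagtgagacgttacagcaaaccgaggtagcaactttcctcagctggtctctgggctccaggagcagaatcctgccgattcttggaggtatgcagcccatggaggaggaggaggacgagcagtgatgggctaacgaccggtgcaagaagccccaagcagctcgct
Grik2, chr20:54415284-54415533, minus strand: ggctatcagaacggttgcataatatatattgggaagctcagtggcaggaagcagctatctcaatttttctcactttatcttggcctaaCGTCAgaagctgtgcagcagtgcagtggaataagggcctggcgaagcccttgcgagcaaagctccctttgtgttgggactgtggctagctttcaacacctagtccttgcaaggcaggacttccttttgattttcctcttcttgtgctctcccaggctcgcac

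In windows of 300 bases that also hold the 50 bases after the start, 5 motifs were searched on both strands. Grin1 alone of the 5 windows held GCGGGGGCG, the site of Egr transcription factors (2.73% of all 33469 windows), and GGGCGG, the GC box of Sp1 (33.1%). The matches overlap, and lie in a stretch of 30 bases after the start, with the matched bases in capitals.
Grin1, chr3:28528710-28528739, minus strand: gcgtcaggaaGCGGGGGCGGtgggaggggt
TGACG was found at 3 places in the Grin1 window, the last of them in this stretch, and at 1 in that of Grik2 (21.2% of all windows). The full element TGACGTCA, which contains it (1.83%), and TTCAGCACC, the left part of the neuron-restrictive RE1 element (0.356%), were in none of the 5. The windows of Gria4, Grin2c and Grik1 held none of the 5 motifs. A match is a string of letters and not a site of binding.

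Of the other 8 subunits of the receptor family, averaged by symbol, 2 fell, none rose and 6 were not called, with a median log2 difference of -0.33; over all 17928 features 16% were called lower and 15% higher, with a median of -0.05. The called genes were Grin3a, for the glycine-binding GluN3A (1.93-fold lower, or 1.61- to 2.31-fold within rounding, adjusted p = 0.0193), and Grik5, for GluK5, which needs a partner such as GluK2 to form a channel (1.79-fold lower, adjusted p = 0.0378, both limma). For Grin3a the groups overlapped, with tMCAO replicate 4 at -0.18 and sham replicate 1 at -0.22. The delta receptor gene Grid1 (log2 difference -0.57, adjusted p = 0.0832) and the kainate subunit gene Grik4 (-0.21, adjusted p = 0.281) were not called. Whether the listed members and these 8 genes differ was not tested.

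Of 11 measured auxiliary subunits and synaptic organizers, 3 fell, none rose and 8 were not called, with a median log2 difference of -0.35. The neuronal pentraxin Nptx1, which clusters AMPA receptors, fell 2.58-fold (limma adjusted p = 0.0106), the transmembrane AMPA regulator Cacng3 2.30-fold (adjusted p = 0.014) and the olfactomedin Olfm1 1.95-fold (adjusted p = 0.0078). The activity-regulated pentraxin Nptx2 had a log2 difference of 1.11 ± 0.46 (SE), which was not called (adjusted p = 0.0982), and the kainate receptor partner Neto2 one of -0.35 (adjusted p = 0.211).

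Scaffold and trafficking genes fell in 11 of 15 cases and rose in none, with a median log2 difference of -0.44. Among them were the scaffold Shank2 (2.73-fold, limma adjusted p = 0.0146), the fusion ATPase Nsf, which binds GluA2 (2.35-fold, adjusted p = 0.0077), and Dlg3, which encodes the NMDA receptor anchor SAP102 (2.31-fold, adjusted p = 0.0043). The cytoskeletal linker gene Epb41l1 (log2 difference -0.24, adjusted p = 0.175) and Homer1 (-0.25, adjusted p = 0.411) were not called; the 2 probes of Epb41l1 disagreed, at -0.77 and 0.29.

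In the list of glutamate supply and clearance, 4 of 11 measured genes fell, 1 rose and 6 were not called, with a median log2 difference of -0.20. The glutamine transporter Slc38a1 fell 1.81-fold (limma adjusted p = 0.0059) and the vesicular glutamate transporter Slc17a7 1.46-fold (adjusted p = 0.0141). The gene that rose, named after its value was seen, was Slc38a2, another glutamine transporter (1.27-fold, limma adjusted p = 0.0086), whose 2 probes lay at -0.10 and 0.80. Glutamate dehydrogenase Glud1 (log2 difference -0.31, adjusted p = 0.0611) and the neuronal transporter Slc1a1 (-0.19, adjusted p = 0.289) were not called. Of the 3 editing enzymes, Adarb1, which edits the GluA2 transcript at its pore site, fell 1.51-fold (limma adjusted p = 0.0054) with all 3 probes lower, at -0.80, -0.52 and -0.46. Adar (log2 difference -0.34, adjusted p = 0.0729) and Adarb2 (-0.29, adjusted p = 0.244) were not called.

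The closest families gave the following counts. Of 8 metabotropic receptors, which act through G proteins, 5 fell and none rose, with a median log2 difference of -0.90; Grm3 fell 2.46-fold and Grm5 2.15-fold (limma adjusted p = 0.0016 and 0.0264; for the dim Grm5 the groups overlapped and rounding allows 1.51- to 3.13-fold), while Grm6 (-0.61) and Grm7 (-0.37) were not called. Of 11 measured GABA-A subunits, which form the inhibitory chloride channels, 4 fell and none rose, with a median of -0.33. Gabrd fell 4.73-fold, Gabra4 2.55-fold and Gabra5 2.21-fold (limma adjusted p = 0.0062, 0.0319 and 0.0043), and Gabrb1 (-0.09) and Gabrg1 (-0.27) were not called. The 9 measured ionotropic members, averaged by symbol, had a median of -0.88. These are counts side by side, and the differences between families were not tested.

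Markers of neurons moved with the members. All 9 measured neuron markers fell (median log2 difference -1.07), among them the enolase Eno2 (1.5-fold) and the neurofilament Nefl (1.72-fold); none had a signal of 0, and Rbfox3, Snap25 and Syt1 were not measured by symbol. In the 4 tMCAO animals, in replicate order, these markers had a median log2 ratio of -1.48, -0.98, -1.04 and -0.62, and in sham animals it lay between -0.06 and 0.02. For the 9 member genes the medians were -1.32, -1.0, -1.10 and -0.53 in the same tMCAO animals and between -0.14 and 0 in sham animals. Of the excitatory cortical markers 3 of 5 fell (median -0.54; Nrgn 4.48-fold lower), and of the interneuron markers 5 of 7 (median -0.54; Pvalb 2.93-fold lower, Sst 1.46-fold lower). The interneuron markers not called were Gad1 (log2 difference -0.16) and Npy (0.55, adjusted p = 0.139), named after their values were seen. The part of these neuronal markers in the falls of the receptor genes was not tested.

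Microglia and macrophage markers rose in 7 of 8 cases (median log2 difference 1.09; Csf1r 1.66-fold and Aif1 1.87-fold higher), with array medians of 0.51 to 1.28 in tMCAO and -0.09 to 0.05 in sham cortex. For Csf1r the groups overlapped, with tMCAO replicate 4 at 0.01, inside the sham range of -0.21 to 0.02. Astrocyte markers fell in 4 of 8 cases and rose in 1 (median -0.60; Aldoc 1.93-fold lower, Gfap 2.68-fold higher). None of 6 oligodendrocyte markers was called (median -0.22; Cnp -0.20, Mobp -0.30); Mag, named after its value was seen, stood at 0.54 (adjusted p = 0.0916), and the other 5 were below 0. Of 5 measured markers of oligodendrocyte precursors, which also express AMPA receptors, 2 rose and none fell (median 0.45; Sox10 1.46-fold higher, Olig1 not called at -0.44). Striatal markers were present in tissue labelled cortex, fell in 6 of 8 cases (median -1.01; Penk 2.19-fold lower, Tac1 not called at 1.09), and lay below the pool in sham animals too, with array medians of -1.63 to -1.06 in tMCAO and -0.57 to -0.39 in sham cortex. The part of these cell types in the receptor results was not tested.

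**Figure D4:**
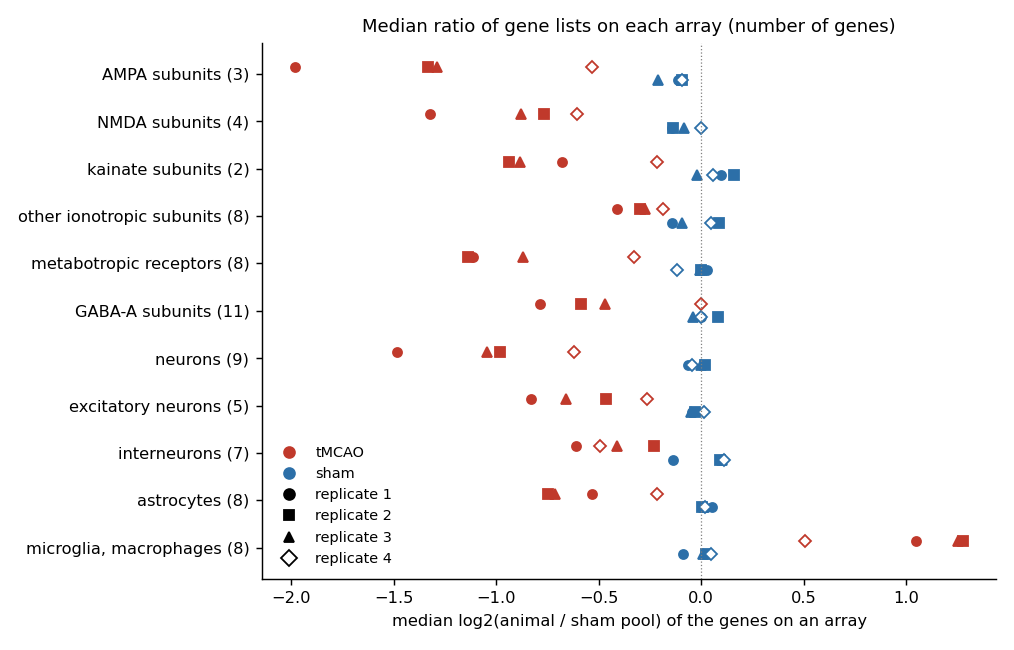
Median log2 ratio to the sham pool of the genes of each list on each array (number of measured genes in parentheses), tMCAO in red above sham in blue, with marker shape for the replicate. The glutamate receptor lists and the neuron markers lie below 0 on all 4 tMCAO arrays, while microglia and macrophage markers lie above it. The GABA-A subunits lie below 0 on tMCAO replicates 1 to 3 and at 0 on replicate 4.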

How the data were processed

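Per the labels' protocols, cortex RNA (RNeasy Midi kit, 30 min of DNase treatment) was amplified by a method of 2 rounds starting with 100 ng. The deposited table gives, for each array, a normalized linear intensity for Cy3 and for Cy5, and the authors' p-value of the difference; Agilent Feature Extraction 8.5.1.1 is named in the submitters' processing notes, and the scaling and error model are not given in the sources used here. The deposited series matrix holds log10 ratios, equal to those of the intensities within 0.005. Intensity 1 was taken as Cy3 and Intensity 2 as Cy5 on the basis of the labels.

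The log2 of Cy5 over Cy3 was taken on 23376 of 23609 probes; 233 with a missing value were left out, none of them a member. limma 3.58.1 (R 4.3.3; lmFit, eBayes, 2-sided) fitted a mean per group to every probe, and calls were made at an adjusted p under 0.05. Probe symbols were used as deposited for members. For the gene lists, probes of a symbol were averaged after synonyms were updated from a RefSeq list (2121 probes), and 26 date-like symbols were not used. Ranges within rounding are the extremes reached when each intensity is off by 0.005. Of the member probes, 9 of 10 carry a RefSeq accession of the same gene.

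Members and gene lists were chosen with earlier results of these data known. Named are all members, up to 3 called and 2 uncalled genes of each list, and up to 2 markers of each cell type; 3 genes that this rule names are not reported here, but are in the counts and medians of their lists. The pipeline was tested on simulated data. Same-numbered replicates did not deviate together (correlations -0.06 to 0.03), so numbers were not taken as pairs.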

Additional observations from a re-analysis of the deposited data

How the results depend on the processing

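The count of member probes called lower, 10 of 10, was 8 to 10 under median centring, a filter on dim probes, quantile-normalized ratios, quantile-normalized Cy5, the pool in place of the sham animals, an intensity trend, no moderation, array weights and the series matrix values. Averaged by symbol, 9 of 9 genes were called. At an adjusted p under 0.01 the count was 6. With the replicate number as a block it was 9, Grin2b being lost (adjusted p = 0.0752). Leaving out each array in turn gave 8 to 9. Of 198 values of single members under these alternatives, 175 stayed on the same side of the threshold, 23 lost the call and none changed direction. Median centring and the series matrix change next to nothing by construction, since the array medians were already 0 and the matrix holds the same ratios; without these 20 values, 155 of 178 stayed on the same side. The lost calls were 12 of 20 for Grin2b, 8 of 20 for Grik2 and 1 each for Gria2, the RefSeq-listed Gria3 probe and Grin2c, the last with quantile-normalized ratios (adjusted p = 0.0511). The number of all probes called lower was 3540, and ranged from 1018 at an adjusted p under 0.01 to 6034 with the pool as the control; it was 1691 with quantile-normalized ratios, 2393 with the replicate block, 5993 with array weights, 5472 without tMCAO replicate 4, and 2020 to 2339 without any other single array. The comparison of sham animals with the pool called 0 member probes under each of the 6 alternatives, added after seeing the data. This carries little weight, since the pool was itself RNA of sham cortex. With 4 arrays a group, precision is limited by their number, and for Gria4, Grin2a and Grin2b also by the rounding of dim signals.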
